A study of Mus musculus with 12 samples.

Results

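The CD3 chains, the constant genes of the alpha-beta T cell receptor, and the kinases and adaptor that act first after the receptor were examined in pancreatic islets of NOD mice given an antibody against CD3. The 10 genes were chosen by name as the target of the antibody and its immediate signalling partners: Cd3e, Cd3d, Cd3g, Cd247, Trac, Trbc1, Trbc2, Lck, Zap70 and Lat. Every one of the 10 had a row among the 13703 genes of the authors' deposited comparison table, and all 10 passed the filter on low counts. Female wild-type mice of the NOD/ShiLtJ strain, in which lymphocytes enter the islets and destroy beta cells, were 9 weeks old and had normal blood glucose at the start. They received anti-CD3 at 2.5 mg/kg or a control IgG once a week for 4 weeks, and 2 to 3 days later their islets were freed with collagenase P. Polyadenylated RNA was sequenced in 6 anti-CD3 and 6 IgG libraries. The labels give neither the antibody's clone nor whether a library came from 1 mouse or a pool, so p-values measure only the spread between these samples, which may be technical.

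The T cell receptor has no signalling domain of its own. Its alpha and beta chains, each made of a rearranged variable part and a constant part, bind antigen, and they reach the surface only together with the CD3 epsilon, delta, gamma and zeta chains. When antigen or an antibody against CD3 engages the complex, the kinase Lck phosphorylates the cytoplasmic tails of the CD3 chains, Zap70 docks there and phosphorylates the adaptor Lat, and Lat gathers the enzymes that open the calcium, Ras and NF-kappaB branches. Anti-CD3 antibodies are known to make T cells take the complex off their surface and to remove or silence effector T cells, and in NOD mice they are known to delay or reverse diabetes. RNA levels, as measured here, do not report surface protein.

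Cd3e, Cd3d and Cd3g lie side by side on chromosome 9 (GRCm38), with Cd3g at 44969572 to 44980431 on the minus strand, Cd3d at 44981786 to 44987339 on the plus strand and Cd3e at 44998740 to 45009627 on the minus strand. As Cd3e is the target chain of most anti-CD3 antibodies and Cd3d and Cd3g, which start back to back, are its partners, the promoters of the 3 are shown. Each runs from 250 bases before to 50 bases after the start, 5′ to 3′ on the gene's own strand, from the RefSeq promoter table of GRCm38.p6, in which 7 of the 10 genes had an entry. Capitals mark the letters AGGAAG (an ETS core), CACCTG (an E-box) or CTTTGA (a TCF core), or their reverse complements. TGTGGT (a RUNX core) was also searched on both strands. No match overlapped another in the 3 windows.
Cd3e, chr9:45009562-45009861, minus strand: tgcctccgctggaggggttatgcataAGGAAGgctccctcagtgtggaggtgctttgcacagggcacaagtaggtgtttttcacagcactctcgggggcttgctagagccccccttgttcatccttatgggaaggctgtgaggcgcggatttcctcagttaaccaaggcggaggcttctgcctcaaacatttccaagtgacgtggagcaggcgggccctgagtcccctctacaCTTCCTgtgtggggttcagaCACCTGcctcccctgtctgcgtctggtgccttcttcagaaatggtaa
Cd3d, chr9:44981536-44981835, plus strand: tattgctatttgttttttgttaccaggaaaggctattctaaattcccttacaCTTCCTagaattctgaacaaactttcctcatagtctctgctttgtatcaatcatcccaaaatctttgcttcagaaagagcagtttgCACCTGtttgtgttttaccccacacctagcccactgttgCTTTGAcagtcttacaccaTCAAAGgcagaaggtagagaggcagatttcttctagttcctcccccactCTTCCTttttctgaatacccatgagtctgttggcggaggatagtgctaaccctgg
Cd3g, chr9:44980382-44980681, minus strand: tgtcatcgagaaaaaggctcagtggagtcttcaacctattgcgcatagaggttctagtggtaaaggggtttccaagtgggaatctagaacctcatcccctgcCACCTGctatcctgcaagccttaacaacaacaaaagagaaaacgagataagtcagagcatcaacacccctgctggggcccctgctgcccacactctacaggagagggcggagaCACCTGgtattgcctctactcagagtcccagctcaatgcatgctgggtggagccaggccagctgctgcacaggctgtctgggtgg
The Cd3e window held 2 matches to the ETS letters and 1 to the E-box. The Cd3d window held 2 to the ETS letters, 1 to the E-box and 2 to the TCF letters, whereas the Cd3g window held 2 to the E-box and 0 to the ETS letters. Among all 32851 promoters of that table, 35.4% held the ETS letters, 20.2% the E-box, 16.8% the RUNX letters and 16% the TCF letters, so such matches are common and describe only the sequence.

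Trbc1 and Trbc2 are copies of each other, 2 alternative constant genes of the beta chain on chromosome 6 (Trbc1 at 41538218 to 41539881, Trbc2 at 41546730 to 41548352, GRCm38). Their coding sequences matched at 488 of 512 aligned bases (95.3%), with an unbroken identical run of 259 bases. Of the 24 differing bases, 20 lay in the last 120, which are shown from coding base 393 to 512 with the differing bases in capitals, because reads from elsewhere in these genes can be shared between them. Both stretches span introns in the genome.
Trbc1, chr6:41539131-41539347, plus strand: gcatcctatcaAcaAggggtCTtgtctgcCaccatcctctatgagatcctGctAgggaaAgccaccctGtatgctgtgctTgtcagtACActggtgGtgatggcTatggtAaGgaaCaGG
Trbc2, chr6:41547627-41548172, plus strand: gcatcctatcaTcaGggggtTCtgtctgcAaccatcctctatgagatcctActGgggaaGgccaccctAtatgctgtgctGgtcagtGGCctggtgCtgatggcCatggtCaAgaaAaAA

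Total counts per library were 10994337 to 19284740 in anti-CD3 and 11891132 to 17628347 in IgG. Most of them came from exocrine tissue: 30 genes of acinar cells took 68.0% to 71.9% of counts in anti-CD3 libraries and 32.2% to 71.1% in IgG libraries. IgG 6, at 32.2%, and IgG 5, at 54.9%, stood apart, and the other 10 libraries lay between 64.3% and 71.9%. Islet hormone genes took 0.956% to 2.02% of counts in anti-CD3 and 1.23% to 3.84% in IgG. Raw counts of the 10 genes together were only 54 to 425 per anti-CD3 library and 53 to 4946 per IgG library. Levels are given as the authors' normalised counts, which are raw counts divided by 1 size factor per library.

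No member passed the test between groups, and all 10 had lower fitted levels after anti-CD3. The log2 fold changes, anti-CD3 over IgG, ran from -1.53 (Trbc1) to -0.87 (Trbc2), with a median of -1.21 against -0.05 for all 13115 genes tested. Of those genes, 55.2% also had a fold change below 0. By edgeR's quasi-likelihood test, 0 of 10 members passed an adjusted p of 0.05, where 0.0762% of all tested genes did in either direction and 0% in the lower one. At an unadjusted p under 0.05, 2 of 10 members were lower (Cd3e and Lck), against a background of 8.68%. DESeq2 called 0 of 10 members, against 1.51% of its 30146 genes in either direction and 0.448% lower. That base includes genes without an adjusted p, which could not be called, whereas all 10 members had one. In the authors' deposited table an adjusted p is given for 8 members, none of them under 0.05, and it is NA for Cd3d and Lat. There 1.03% of 13703 genes were called lower, a base that includes 2935 with an adjusted p of NA. In no member were the groups free of overlap, as they were for 0.648% of tested genes in this direction. The size of the differences rested on IgG 6: without IgG 6 the median over members was -0.44, and without IgG 5 and IgG 6 it was -0.31. With an acinar score as a covariate, the mean log2 CPM of the acinar genes in each library, the direction turned in 7 of the 10 members. The median was then 0.28. In whole islets, fewer T cells and less of these RNAs per T cell cannot be told apart.

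**Figure D1:**
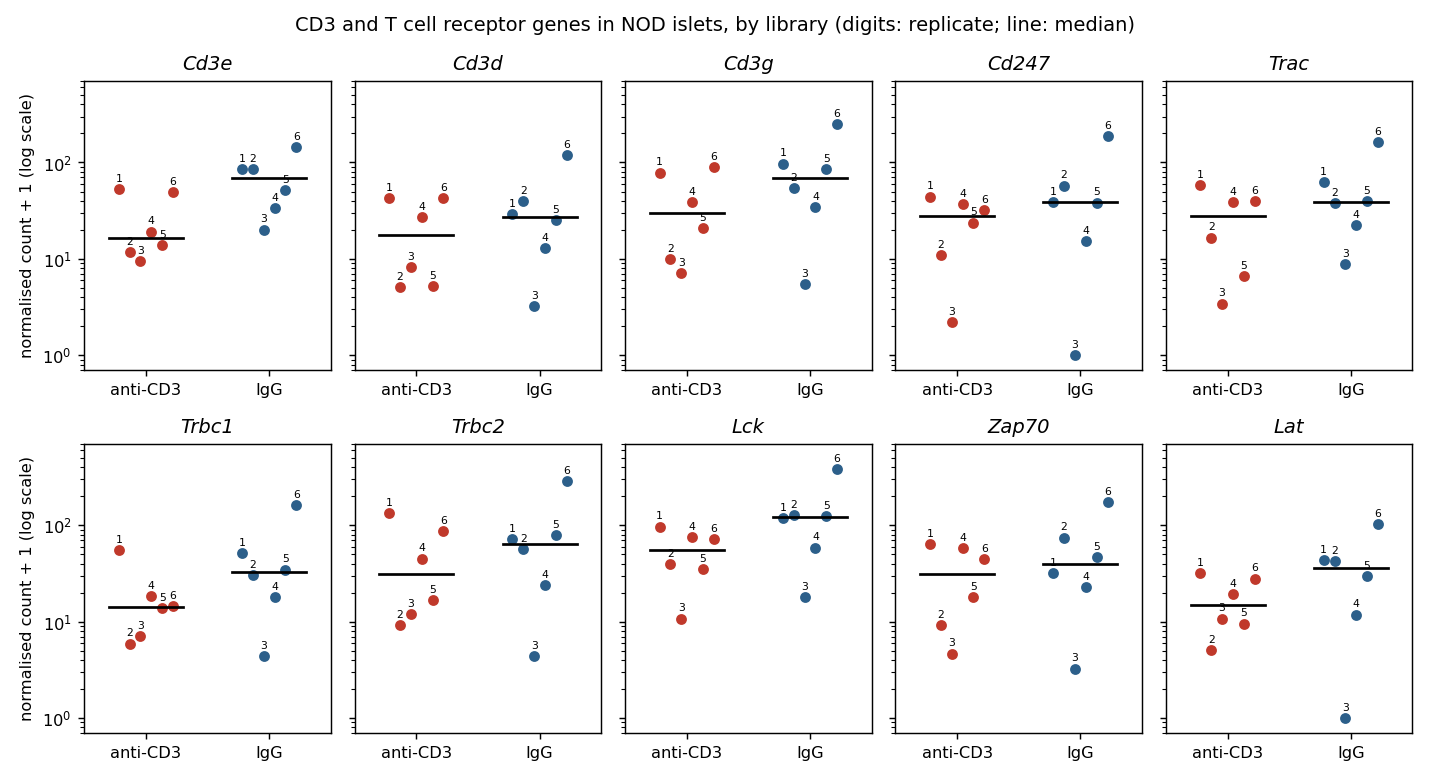
Normalised counts plus 1 (log scale) of the 10 genes in each of the 6 anti-CD3 (red) and 6 IgG (blue) libraries, with replicate numbers as digits and group medians as lines. IgG 6 is the highest library in every panel, and the groups overlap in all of them; Cd3e has its 6 anti-CD3 libraries below the IgG median.

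Cd3e encodes CD3 epsilon, the chain that pairs with both delta and gamma and that most anti-CD3 antibodies bind. Its normalised count was 8.50 at the lowest, 15.5 at the median and 52.3 at the highest in anti-CD3 libraries, against 19.1, 67.2 and 142 in IgG libraries. All 6 anti-CD3 libraries lay below the IgG median. Anti-CD3 1 and anti-CD3 6, at 52.3 and 48.5, were the only 2 above the lowest IgG library. The log2 fold change was -1.51 ± 0.54 (SE), with an adjusted p of 0.182 by edgeR and 0.0764 by DESeq2, and the authors' deposited table gives -1.48 with an adjusted p of 0.0739. Without IgG 6 it was -1.17, and without IgG 5 and IgG 6 it was -1.20, but with the acinar score as a covariate it was -0.86 ± 0.62 (edgeR adjusted p = 0.716). The exons of Cd3e overlap the antisense gene Gm48719, whose own row held 19 counts over all libraries and 0 in the anti-CD3 ones.

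Cd3d encodes CD3 delta, one partner of epsilon. It had normalised counts of 4.10, 16.6 and 41.8 (lowest, median and highest) in anti-CD3 libraries, against 2.25, 26.1 and 119 in IgG libraries. Cd3g encodes CD3 gamma, the other partner. It had 6.07, 29.0 and 88.9 in anti-CD3 libraries, against 4.50, 68.6 and 249 in IgG libraries. For both, IgG 3 held the lowest value of all and IgG 6 the highest, with the anti-CD3 libraries spread between them. The log2 fold changes were -0.91 ± 0.78 for Cd3d (edgeR adjusted p = 0.542) and -1.17 ± 0.77 for Cd3g (adjusted p = 0.428). Without IgG 5 and IgG 6 they were -0.03 and -0.29, smaller than their errors.

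Cd247, on chromosome 1 (165788681 to 165877277), encodes the zeta chain, which carries most of the tyrosine motifs of the complex. It had normalised counts of 1.21, 26.9 and 43.3 in anti-CD3 libraries, against 0, 37.6 and 185 in IgG libraries. IgG 3 had 0 counts, which allows up to 3 counts or a normalised count of 3.38, so the IgG group held both the lowest and the highest library. IgG 6 alone held 55.9% of the group's summed level. The log2 fold change was -1.25 ± 0.86 (edgeR adjusted p = 0.445), and -0.23 without IgG 5 and IgG 6. Exons of Cd247 overlap those of Pou2f1 on the other strand and Gm16565, and as no source used here gives the counting's strand setting, some reads may belong to those genes.

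Trac, on chromosome 14 (54220521 to 54224206), is the constant gene of the receptor alpha chain. It had normalised counts of 2.43, 26.8 and 57.8 in anti-CD3 libraries, against 7.88, 38.0 and 162 in IgG libraries. The anti-CD3 libraries split into anti-CD3 3 and anti-CD3 5, at 2.43 and 5.68 and below every IgG library, and 4 others that overlapped with them. The log2 fold change was -1.10 ± 0.72 (edgeR adjusted p = 0.430), and -0.32 without IgG 5 and IgG 6.

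Trbc1 had normalised counts of 4.92, 13.1 and 54.1 in anti-CD3 libraries, against 3.38, 31.3 and 162 in IgG libraries. Trbc2 had 8.21, 29.9 and 132 in anti-CD3 libraries, against 3.38, 63.4 and 288 in IgG libraries. In both genes anti-CD3 1 stood at the top of its group and IgG 6 at the top of all. Trbc1 had the fitted difference furthest below 0 among the members, at -1.53 ± 0.77 (edgeR adjusted p = 0.307), and Trbc2 the one nearest 0, at -0.87 ± 0.84 (adjusted p = 0.592). Without IgG 5 and IgG 6 they were -0.56 and 0.29, so the sign of Trbc2 turned; it was also above 0 at 0.03 without IgG 6. The share of beta constant counts assigned to Trbc1 was 13.5% to 45% in anti-CD3 libraries with a median of 32.4%, against 30.1% to 50% with a median of 38.8% in IgG libraries. Those ranges overlap, and since shared reads may be split between the copies, the share is uncertain.

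Lck, on chromosome 4 (129548344 to 129573641), encodes the kinase that starts receptor signalling. It had normalised counts of 9.71, 54.3 and 95.7 in anti-CD3 libraries, against 16.9, 121 and 380 in IgG libraries. All 6 anti-CD3 libraries lay below the IgG median, and the IgG libraries other than 3 and 4 lay above every anti-CD3 library. The log2 fold change was -1.37 ± 0.62, with an unadjusted p of 0.0460 and an adjusted p of 0.266 by edgeR. It was -0.75 without IgG 6 and -0.59 without IgG 5 and IgG 6.

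Zap70, on chromosome 1 (36761798 to 36782818), encodes the kinase that docks on the phosphorylated CD3 chains. It had normalised counts of 3.64, 30.1 and 63.2 in anti-CD3 libraries, against 2.25, 38.1 and 173 in IgG libraries. Lat, on chromosome 7 (126363824 to 126369570), encodes the membrane adaptor that Zap70 phosphorylates. It had 4.10, 13.9 and 30.7 in anti-CD3 libraries, against 0, 35.2 and 102 in IgG libraries. Their medians were lower after anti-CD3, with every anti-CD3 library of Lat below the IgG median but only 3 of 6 for Zap70. The log2 fold changes were -0.89 ± 0.79 for Zap70 (edgeR adjusted p = 0.551) and -1.27 ± 0.76 for Lat (adjusted p = 0.383). Without IgG 5 and IgG 6 they were -0.05 for Zap70 and -0.61 for Lat.

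**Figure D2:**
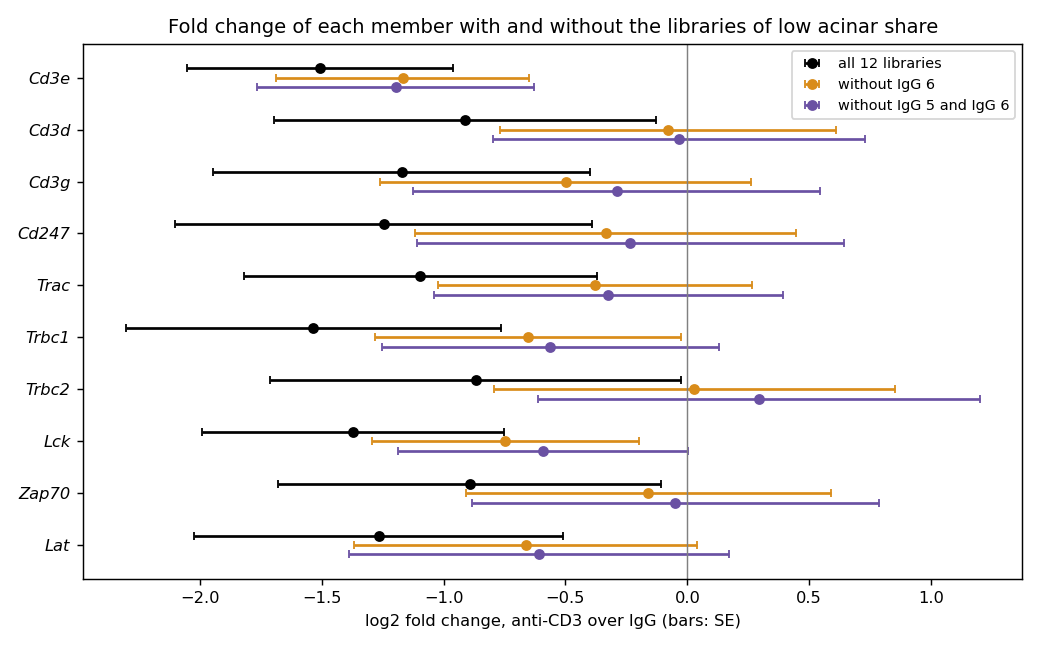
Log2 fold change (anti-CD3 over IgG) of each gene (points) with its SE (bars), from all 12 libraries (black), without IgG 6 (orange) and without IgG 5 and IgG 6 (purple). With all libraries every point lies below 0; without IgG 5 and IgG 6 Cd3e stays at -1.20 while Cd3d, Zap70, Cd247, Cd3g and Trac lie between -0.32 and -0.03, and Trbc2 at 0.29.

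Levels can be set side by side between genes only per kilobase of annotated exon. On that scale Trbc2 had the highest median in both groups, at 43.2 normalised counts per kb in anti-CD3 and 91.6 in IgG. The constant genes Trac (28.7 in anti-CD3 and 40.7 in IgG) and Trbc1 (17.5 and 41.8), with Lck (18.5 and 41.2), came next. Cd3g had 8.86 per kb in anti-CD3 and 20.98 in IgG, and Cd3d had 9.15 and 14.4. Cd3e had the lowest per-kb median in anti-CD3, at 3.79, whereas in IgG it stood at 16.5, above Cd3d, Zap70 (12.7), Lat (12.7) and Cd247 (7.06). Library ranges of these neighbours overlapped widely in both groups, and reads shared between Trbc1 and Trbc2 make their order uncertain. The length was the union of exons over all annotated transcripts: 4080 bases for Cd3e, 5329 for Cd247 and 692 for Trbc2. It can exceed the length of any single transcript, so the order of the other genes is uncertain too.

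The 10 genes moved together from library to library, and their summed normalised count differed more within groups than between their medians. It was 65.5, 260 and 648 (lowest, median and highest) in anti-CD3 libraries and 59.7, 569 and 1963 in IgG libraries. IgG 6, at 1963, was 1st for all 10 genes. Behind it came anti-CD3 1 at 648, IgG 1 at 621, IgG 2 at 594 and IgG 5 at 545. IgG 3, at 59.7, was the lowest library for 7 of the 10 genes. Without IgG 6 the median of the remaining 5 IgG libraries was 545. Its share of the IgG group's summed level ran from 34.4% for Cd3e to 55.9% for Cd247.

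Genes of other immune cells and of stroma ranked the libraries in a similar way, whereas acinar and endocrine genes did not. Counts of genes below 0 are to be read against the 55.2% of all tested genes below 0. The summed normalised count of 9 B cell markers was 18.2, 219 and 509 in anti-CD3 libraries and 34.9, 288 and 2299 in IgG libraries, and all 8 that were tested had fold changes below 0, with a median of -1.34 that became 0.33 without IgG 5 and IgG 6. That of 9 macrophage markers was 709, 1180 and 2868 in anti-CD3 and 734, 2112 and 9068 in IgG, and that of 8 NK cell markers was 8.50, 39.9 and 162 in anti-CD3 and 21.4, 78.5 and 361 in IgG. In each of these lists anti-CD3 3 and IgG 3 were the lowest libraries of their groups, and anti-CD3 1 and IgG 6 the highest. Markers of lymph node stroma summed to 2.43, 82.4 and 161 in anti-CD3 and 13.5, 106 and 1265 in IgG, with 1 gene, Cxcl13, past the filter. Glycam1 had a median of 2.73 and a highest value of 84.8 in anti-CD3, against 7.75 and 884 in IgG. The highest values in anti-CD3 and IgG were 11.2 and 58.0 for Madcam1, 3.61 and 5.29 for Ccl19, and 0 and 16.7 for Chst4. Ccl21a was at 0 in every library. The 8 stromal genes summed to 346, 906 and 1684 in anti-CD3 and 987, 1722 and 4276 in IgG, again lowest in anti-CD3 3 and IgG 3 and highest in anti-CD3 1 and IgG 6. All 8 had fold changes below 0, with a median of -1.09 that was -0.71 without IgG 5 and IgG 6. Of these, 0 passed edgeR's adjusted threshold, and 5 were lower at an unadjusted p under 0.05, against 8.68% of all tested genes. DESeq2 called 3 lower, against 0.448% of its 30146 genes: the collagen genes Col1a1 (adjusted p = 0.0415), Col3a1 (0.0322) and Col6a3 (0.0273). All 30 acinar genes had fold changes above 0, with a median of 0.68, and none passed edgeR's or DESeq2's adjusted threshold. By edgeR 11 of the 30 were higher at an unadjusted p under 0.05, as were 1270 of all 13115 tested genes. The sum of the acinar genes was lowest in IgG 6. Of 12 endocrine genes, 7 were below 0 and 5 above, with a median of -0.11. The part of these other cells and of the acinar share in the values of the 10 genes was not tested.

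**Figure D3:**
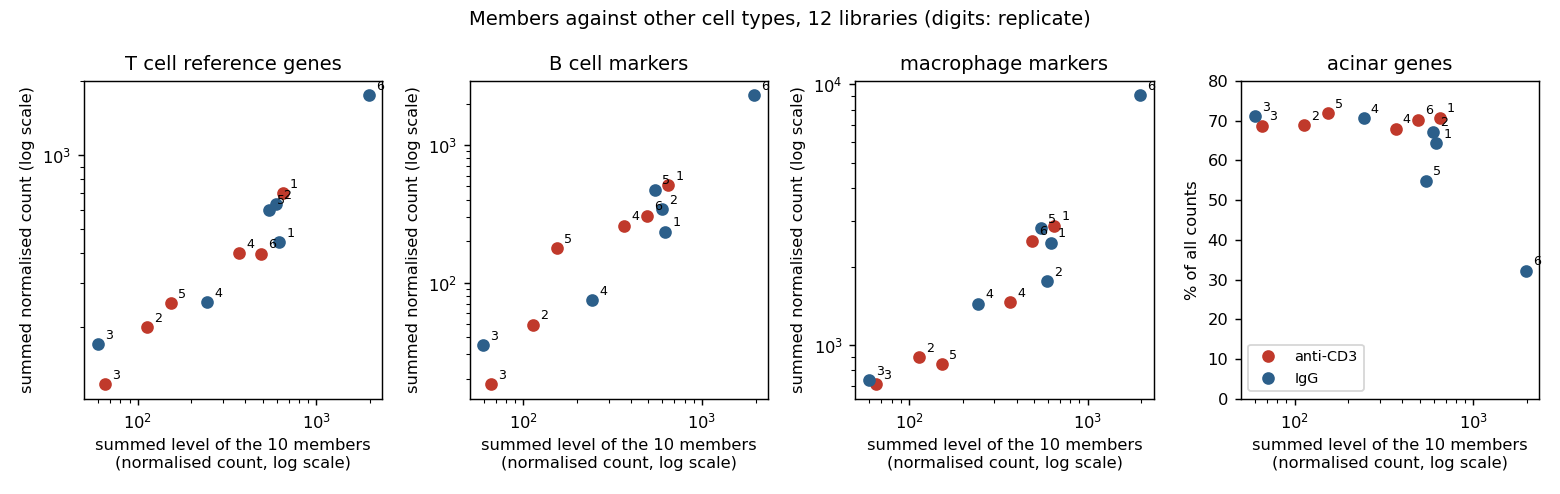
Summed normalised count of the 10 genes (x axis, log scale) in each of the 12 libraries against the summed normalised count of 10 other T cell genes, 9 B cell markers and 9 macrophage markers (log scales) and against the percent of all counts from acinar genes (linear scale). IgG 6 is at the top of the 3 immune panels and, at 32.2%, at the bottom of the acinar one; anti-CD3 3 and IgG 3 are at the lower left of the immune panels.

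Relative to other T cell genes, no member differed between groups by more than its pooled SD in every way the ratio was taken. The differences of Cd3e, Cd3g, Trac, Trbc1 and Lck were below 0 each time, for Cd3g by as little as -0.003. In each library, each member's normalised count was divided by the summed normalised count of 10 T cell genes outside the complex (among them Cd2, Cd5, Cd28, Bcl11b and Tcf7), with 0.5 added to both. The log2 ratio of Cd3e was -3.88 ± 0.51 in anti-CD3 and -3.08 ± 0.46 in IgG (SD, n = 6 each), a difference of -0.79 where the pooled SD was 0.49. Its range was -4.42 to -3.02 in anti-CD3 and -3.62 to -2.37 in IgG, so the groups overlapped. The other 9 members differed by -0.41 (Trac) to 0.35 (Lat), each less than its pooled SD.

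The 2 libraries numbered 3 hold few counts of these genes, with 0 for Cd247 and Lat in IgG 3. They widen the pooled SD of every member but Cd3e, whose pooled SD was 0.49 with them and 0.54 without. Without them all 10 members were below 0, with Zap70 nearest it at -0.06, and 4 differed by more than their pooled SD. These were Cd3e (-0.83, pooled SD 0.54), Lck (-0.43, pooled SD 0.21), Trbc1 (-0.69, pooled SD 0.55) and Lat (-0.56, pooled SD 0.51).

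Tcf7 and Skap1, 2 of the 10 T cell genes, varied less in proportion between libraries than the other 8. They had 40.1 to 106 and 34.1 to 70.1 normalised counts in anti-CD3 and 52.8 to 131 and 38.4 to 87.3 in IgG. They made up 23.9% to 74.0% of the summed T cell level in anti-CD3 libraries and 9.96% to 69.5% in IgG libraries, the most in anti-CD3 3 and IgG 3. In the libraries with the lowest T cell levels the ratio therefore rests mostly on these 2 genes. It cannot be read there as level per T cell, since the cells these 2 RNAs came from were not tested. With the other 8 genes as the divisor, chosen after seeing the data, the log2 ratio of Cd3e was -2.99 in anti-CD3 and -2.44 in IgG, a difference of -0.55 where the pooled SD was 0.77. With that divisor 0 of 10 members differed by more than their pooled SD, with or without the libraries numbered 3. Without those libraries Cd3e came close, at -0.586 where the pooled SD was 0.600. These ratios describe the libraries and were not tested.

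Set against Cd3e itself, the other 9 members were each relatively higher after anti-CD3. The log2 ratio to Cd3e was -0.50 ± 0.74 in anti-CD3 and -1.37 ± 0.85 in IgG for Cd3d (SD, n = 6 each), and 0.40 ± 0.61 in anti-CD3 and -0.14 ± 1.04 in IgG for Cd3g. Over the 9 members the difference ran from 0.38 (Trac) to 1.14 (Lat). It exceeded its pooled SD in 2, Cd3d (0.868, pooled SD 0.799) and, narrowly, Trbc2 (0.953, pooled SD 0.946). Without the libraries numbered 3 the difference ran from 0.14 to 0.77, and it fell to 0.52 for Cd3d and 0.61 for Trbc2. All 9 ratios share the same few Cd3e counts, 115 in all anti-CD3 libraries together and 674 in all IgG libraries, so they are not separate observations.

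**Figure D4:**
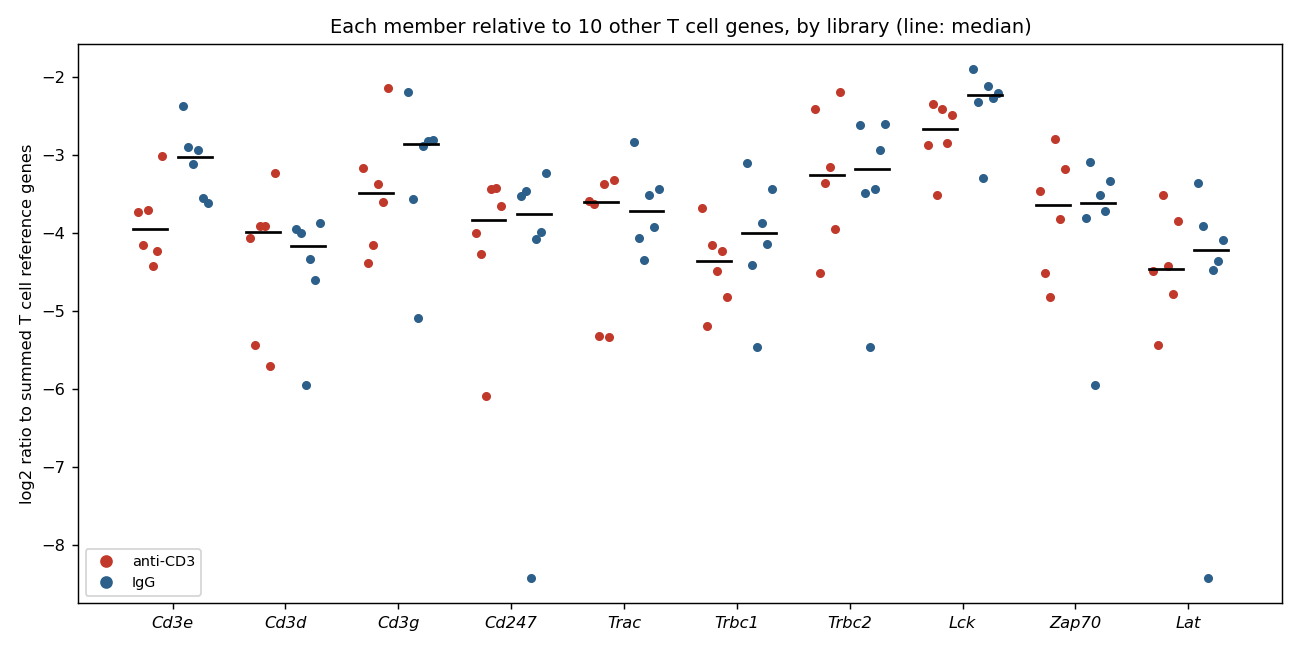
Log2 ratio of each gene's normalised count to the summed normalised count of 10 other T cell genes, in the 6 anti-CD3 (red) and 6 IgG (blue) libraries, with group medians as lines. For Cd3e 5 of the 6 anti-CD3 libraries lie below every IgG library; the 2 lowest points of the plot, at -8.41, are Cd247 and Lat in IgG 3, where both had 0 counts.

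Across the 12 libraries Cd3e and Cd247 had patterns further from the other members than Cd3g did. Likeness was measured as the root mean square difference, over the 12 libraries, of log2 CPM centred on each gene's own mean, where 0 is an identical pattern. Values were not scaled, so genes that vary by different amounts lie apart even where they rise and fall together. Among the members the SD over the 12 libraries was smallest for Cd3e, at 1.22, and largest for Cd247, at 1.83. Amount and shape of variation were not separated. The mean of this distance to the other 9 members was 0.82 for Cd3e, 0.80 for Cd247 and 0.60 for Cd3g. The closest pair was Cd3g with Trbc2 at 0.39, followed by Trac with Lck at 0.43, Cd3d with Trbc2 at 0.44 and Cd247 with Zap70 at 0.46. The member nearest to Cd3e was Lck at 0.60, and the furthest was Cd247 at 1.16. Lck was only the 90th nearest of the tested genes to Cd3e. The 8 nearest that are not members were Tgfbi (0.41), Pdlim2 (0.42), Trpv2 (0.43), Htra3 (0.43), Col6a1 (0.43), Sept1 (0.45), H2-DMa (0.45) and Pstpip1 (0.47). Col6a1 encodes a collagen chain and H2-DMa a chain of the molecule that loads peptides on MHC class II. Their edgeR adjusted p-values ran upward from 0.111 for Tgfbi, whose log2 fold change was -1.55 ± 0.43, so none of the 8 passed the test either.

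Genes further along the pathway were described by the same counts, to be read against the 55.2% of all tested genes below 0 and the 8.68% lower at an unadjusted p under 0.05. Of 26 tested kinases, adaptors and transcription factors that act after the receptor, 23 had fold changes below 0, with a median of -0.63 that became -0.18 without IgG 5 and IgG 6. None passed edgeR's or DESeq2's adjusted threshold, and 6 were lower at an unadjusted p under 0.05. The 3 with the smallest p were Prkcq, the protein kinase C of the T cell synapse, at -1.77 ± 0.67 (edgeR adjusted p = 0.196), Nfatc3, a calcium-driven transcription factor, at -0.46 ± 0.18, and Lcp2, the adaptor SLP-76 that binds to the Lat assembly, at -1.43 ± 0.62. Of 15 tested genes that restrain receptor signalling, 14 were below 0 with a median of -0.62, none passed either tool's threshold and 3 were lower at an unadjusted p under 0.05. These 3 were the ubiquitin ligases Cblb (-0.77 ± 0.30) and Cbl (-0.52 ± 0.21) and the phosphatase Ubash3b (-0.62 ± 0.25). Without IgG 5 and IgG 6 that median was -0.09. Their lowest normalised counts in IgG were 134 (Cblb), 144 (Cbl) and 61.8 (Ubash3b), and that of Nfatc3 was 140, against 19.1 for Cd3e. Which cells these RNAs came from was not tested.

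The same shares of all genes, 55.2% and 8.68%, stand behind the next lists. Of 13 tested co-receptors and costimulatory receptors, all 13 were below 0, with a median of -1.16 that became -0.12 without IgG 5 and IgG 6; none passed either tool's threshold, and 2 were lower at an unadjusted p under 0.05. Cd8a and Cd8b1, the chains of the CD8 co-receptor, had log2 fold changes of -1.59 ± 0.68 and -1.58 ± 0.72, and Ly9, a receptor of the SLAM family, had -1.57 ± 0.77. All 9 tested genes of the T cell list used in the ratios were also below 0, with a median of -0.95 that became -0.22 without IgG 5 and IgG 6. In that list Bcl11b, a transcription factor of T cell identity, was at -1.71 ± 0.62 (edgeR adjusted p = 0.179), and Cd28, the costimulatory receptor, at -1.53 ± 0.77. As for the members, none of the 9 passed either tool's threshold, and 2 were lower at an unadjusted p under 0.05. Some genes stand in more than one of these lists. Constant genes of the gamma-delta receptor held 46 raw counts in the anti-CD3 libraries together and 192 in the IgG libraries, of which 135 in IgG 6, too few to be tested. Their summed normalised count was 1.21 to 23.5 in anti-CD3 libraries and 5.63 to 53.6 in IgG libraries, the last in IgG 6.

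Variable segments of the receptor, which are brought next to the constant genes by rearrangement, were counted as rows of their own. Their counts are raw and so depend on the library, as size factors ran from 0.554 (anti-CD3 1) to 2.52 (IgG 6). The 35 Trbv rows held 169 counts in anti-CD3 libraries (12, 28 and 52 at the lowest, median and highest) and 746 in IgG libraries (9, 46 and 534). The 128 Trav rows held 47 counts in anti-CD3 libraries (0, 6.5 and 18) and 211 in IgG libraries (1, 13 and 161). As normalised counts, the Trbv sum was 14.6 to 46.9 in anti-CD3 libraries. In IgG libraries it was 10.1 to 72.5 outside IgG 6, which had 212. The normalised Trav sum was 0 to 15.6 in anti-CD3 libraries. In IgG libraries it was 1.13 to 15.9 outside IgG 6, which had 63.9. IgG 6 thus carried most of the variable-segment counts of its group, as it did for the constant genes. The Trbv rows with the most counts were Trbv3 (37 in anti-CD3 and 82 in IgG), Trbv15 (12 and 103) and Trbv13-2 (14 and 98). For the alpha chain they were Trav5-4 (5 in anti-CD3 and 31 in IgG), Trav3-3 (2 and 12) and Trav21-dv12 (2 and 12), all of the last from IgG 6.

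Per 100 counts of Trbc1 and Trbc2, the Trbv rows held 25.2 to 212.5 counts in anti-CD3 libraries and 29.2 to 150 in IgG libraries. The highest of these, anti-CD3 2 at 212.5 and IgG 3 at 150, had only 16 and 6 constant counts. The joining segments of the 1st cluster, Trbj1, held 41 raw counts in anti-CD3 and 127 in IgG, and those of the 2nd, Trbj2, held 17 and 98. In anti-CD3 5 there were 13 Trbj1 counts and 0 Trbj2 counts. The trypsinogen gene Prss2, an acinar gene, lies inside the beta locus on chromosome 6 and ends 8784 bases before Trbj1-1. It had normalised counts of 924741 to 1270580 in anti-CD3 libraries and 165470 to 902774 in IgG libraries. Its part in counts of nearby segments was not tested.

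**Figure D5:**
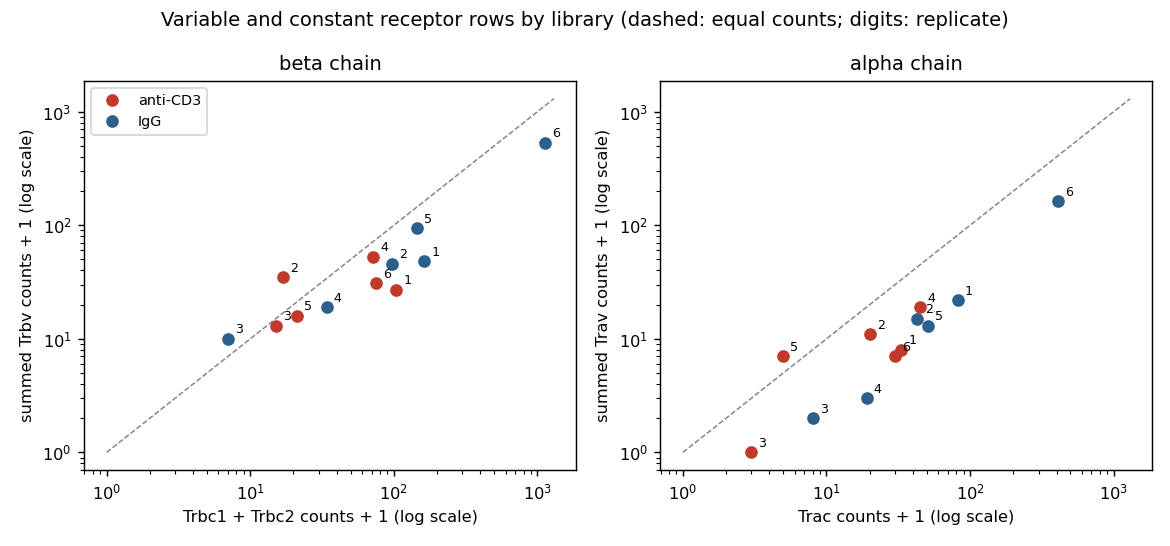
Summed raw counts plus 1 of variable-segment rows (y axis, log scale) against constant-gene counts plus 1 (x axis, log scale) for the beta chain (left) and alpha chain (right) in 6 anti-CD3 (red) and 6 IgG (blue) libraries, with the dashed line at equal counts. On the left anti-CD3 2 and IgG 3 lie above the line, with 34 and 9 variable counts on 16 and 6 constant counts, and IgG 6 is at the top right of both panels.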

How the data were processed

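The submitters' processing notes name Trimmomatic 0.36, STAR 2.5.2b, featureCounts from Subread 1.5.2, DESeq2 and the GRCm38 (mm10) build. The annotation, strand setting and treatment of multi-mapped reads were not given in the sources used here. The authors deposited whole-number counts for 49315 genes in 12 libraries and a comparison table of 13703 genes. That deposited table holds a normalised signal, found to be each count over a size factor of its library, beside the authors' log2 fold change and p-values (2935 adjusted values are NA and stayed so).

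Groups came from sample titles. Symbols came from GENCODE M21 for 49056 genes and from the deposited table for 8, and 251 had none. The filterByExpr function (count of 10, total of 15) left 13115 genes, which were tested in R 4.3.3 with edgeR 4.0.16 (TMM, robust quasi-likelihood F test, two-sided, Benjamini-Hochberg over all tested genes, adjusted p of 0.05). Log2 ratios were of normalised counts with a pseudocount of 0.5. DESeq2 1.42.0 and the settings in the closing section were alternatives. The 10 genes and all lists were chosen with earlier results of these data known. All 10 members are named, with the 3 genes of smallest p in each other pathway list, the 8 genes most like Cd3e and the 3 Trav and 3 Trbv rows with the most counts, except 1 gene that is not reported here. Any other gene was named after its values were seen.

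No 2 libraries of a group agreed within sampling noise. In data simulated for anti-CD3 against IgG over 12989 genes, edgeR found 52% of the 2-fold changes and 92% of the 4-fold changes, and called 10 genes that had none. The changed genes were drawn at random from those with a mean count over 10, and genes varied independently between libraries. The members varied together and had SEs of 0.54 (Cd3e) to 0.86 (Cd247). These percentages therefore do not give the chance of finding a change in the members.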

Additional observations from a re-analysis of the deposited data

Results flagged for a closer look

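A library was marked where its gap to the nearest other library of its group, divided by the group's whole range, was above Dixon's critical value of 0.625 for 6 libraries. Of 40 groups examined, 15 were marked. The rule marks about 1 in 20 by chance only where values are normally distributed. The normalised counts were taken without logs and are skewed, so that rate does not hold for them. The 40 are not independent, since the same libraries return in each.

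IgG 6 stood above the other IgG libraries in normalised count for Cd3d (119), Cd3g (249), Cd247 (185), Trac (162), Trbc1 (162), Trbc2 (288) and Lck (380). In the anti-CD3 group, anti-CD3 1 stood above the others for Trbc1, at 54.1.

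In the log2 ratio to 10 other T cell genes, anti-CD3 3 stood below its group for Cd247, at -6.09. IgG 3 stood below its group for Cd3d (-5.95), Cd247 (-8.41), Trbc2 (-5.46), Lck (-3.29), Zap70 (-5.95) and Lat (-8.41). The 2 ratios at -8.41 come from 0 counts and are set by the pseudocount. In these 2 libraries Tcf7 and Skap1 made up 74.0% (anti-CD3 3) and 69.5% (IgG 3) of the divisor. The ratios of Cd3e marked no library in either group.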

How the results depend on the processing

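No member was called under any of 23 alternatives, and 221 of 230 member fold changes kept their sign. With the acinar score as a covariate, 7 turned: Cd3d 0.54, Cd3g 0.29, Cd247 0.40, Trac 0.27, Trbc1 0.080, Trbc2 0.94 and Zap70 0.44, and the median over members was 0.28. Trbc2 also turned without IgG 6 (0.029) and without IgG 5 and IgG 6 (0.29); with 1 library left out it ran from -1.42 to 0.029. The cause was not tested. With 1 library left out, the median ran from -1.46 to -0.44, the last without IgG 6. Scaling by total counts alone put the median of all genes at -0.70 and that of the members at -2.28. The log2 fold change of Cd3e stayed below 0 in all 23, with edgeR or DESeq2 adjusted p of 0.0575 to 0.716.

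The count of all genes called, 10 as reported, was 6 with upper-quartile factors, 5 without robust estimation, 454 with DESeq2, 167 with no filter, 0 with the acinar covariate, with total counts or without both libraries numbered 3, and 1 without IgG 5 and IgG 6. With 1 library left out it was 0 to 203, the last without anti-CD3 2. Leaving out IgG 5 and IgG 6, leaving out the libraries numbered 3, and scaling by total counts were added after seeing the data. At an unadjusted p under 0.05, edgeR had 2408 genes and DESeq2 2969.

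The groups share replicate numbers, but same-numbered libraries did not all deviate together: their correlations ran from -0.2873 to 0.5522, 3 of 6 were over 0.1 and 2 of 6 libraries correlated best with their own number. With the number as a replicate block, 0 genes were called, the median over members was -0.97 and Cd3e was at -1.52 ± 0.32 with an edgeR adjusted p of 0.106. At an unadjusted p under 0.05, 4 members were then lower (Cd3e, Lck, Cd3g and Trac), against 9.78% of all genes.

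The median difference of members in the ratio to T cell genes became 0.868 when Cd3e was the divisor and 0.158 without Tcf7 and Skap1 in the divisor, the last added after seeing the data; as reported it was -0.084. Low counts limit every value: Cd247 and Lat had 0 counts in IgG 3.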
